A study of Rattus norvegicus with 12 samples.

Results

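The transcripts described here are those of 7 genes at the top of steroid hormone signaling in the mammary gland. They are the progesterone receptor (Pgr), both estrogen receptors (Esr1 and Esr2), the glucocorticoid receptor (Nr3c1), and 3 genes of the paracrine relay below progesterone, namely Wnt4, Tnfsf11, which encodes RANKL, and Tnfrsf11a, which encodes its receptor RANK. They were chosen by name, with earlier results of these data known. Each was read from the probe set that carries its symbol alone, or from the one with the highest mean intensity where several do. Of the 14506 genes with such a probe set, 6 are members; Tnfrsf11a was not analysed here because none of the probe sets used carries its symbol alone.

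RNA came from the mammary glands of 12 ovariectomized female Lewis rats, with 3 rats in each of 4 groups. The rats were ovariectomized at about 10 weeks of age and rested for 14 days. All then received 3 subcutaneous treatments, in a DMSO and castor oil mixture that was also the vehicle control. The treatments were vehicle, 17β-estradiol (E2) at 4 μg/kg body weight/day, 3-methylcholanthrene (3-MC) at 15 mg/kg body weight/day, or E2 + 3-MC at both doses. Glands were taken 24 hr after the last treatment, and the labels state 48 h of treatment. 3-MC is a polycyclic aromatic hydrocarbon that binds the aryl hydrocarbon receptor (AHR). No group lacked ovariectomy, so every comparison was made in animals without ovarian hormones of their own, and no group received progesterone.

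Estrogen receptor α, the product of Esr1, is a ligand-activated transcription factor of the luminal epithelium, and Pgr is a textbook target of it. Progesterone then acts on the receptor-positive luminal cells, which release WNT4 and RANKL to neighboring cells that lack the receptor. RANKL binds RANK and is held back by the soluble decoy receptor osteoprotegerin, encoded by Tnfrsf11b. The glucocorticoid receptor binds DNA elements like those of the progesterone receptor and takes part in lactational differentiation. In RNA from whole glands, a change in the share of a cell type and a change in the RNA per cell cannot be told apart.

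Values are linear PLIER intensities as the authors deposited them. Differences are group means of log2(intensity + 16), so folds at low intensity are smaller than the ratio of the printed intensities. Tests are limma's, over the 23371 probe sets whose mean log2 value was above the 20th percentile of all 29214. A gene was called, or passed, where groups differed at least 1.5-fold and the Benjamini-Hochberg adjusted p was under 0.05. Precision is limited by the 3 arrays per group. The luminal markers Krt8, Krt18 and Epcam and the fat marker Adipoq were all above the filter. Skeletal muscle markers varied most between rats: their median level, as a log2 difference from the vehicle mean, ran from -4.01 to 2.36 within the vehicle group alone and from -3.78 to 1.70 within the 3-MC group.

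The promoter windows of 3 members are shown because they set Pgr, the 1 member that was called, beside the estrogen receptor genes, of which Esr1 did not pass the test and Esr2 lay below the filter. Sequences are from RefSeq on the GRCr8 build, 5′ to 3′ on the gene's strand. Each runs from 250 bases before to 50 bases after a start of the gene model. All 6 measured members had a window. Capitals mark every match, on either strand, to 7 motifs. The estrogen response element was searched as GGTCA and as a palindrome of it with its reverse complement 3 bases on. The progesterone and glucocorticoid response element was searched as TGTTCT and as a palindrome of GNACA with its reverse complement 3 bases on. The xenobiotic response element core, bound by the AHR, was GCGTG. The SP1 box was GGGCGG and the AP-1 site TGANTCA. Each palindrome of the first kind also counts as GGTCA.
Pgr (chr8:14354148-14354447, plus strand): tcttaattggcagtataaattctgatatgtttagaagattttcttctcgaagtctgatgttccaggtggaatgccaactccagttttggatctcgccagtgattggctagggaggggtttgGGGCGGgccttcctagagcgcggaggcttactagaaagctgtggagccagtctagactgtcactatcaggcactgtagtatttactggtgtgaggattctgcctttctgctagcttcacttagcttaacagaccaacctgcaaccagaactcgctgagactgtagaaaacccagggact
Esr1 (chr1:43641845-43642144, plus strand): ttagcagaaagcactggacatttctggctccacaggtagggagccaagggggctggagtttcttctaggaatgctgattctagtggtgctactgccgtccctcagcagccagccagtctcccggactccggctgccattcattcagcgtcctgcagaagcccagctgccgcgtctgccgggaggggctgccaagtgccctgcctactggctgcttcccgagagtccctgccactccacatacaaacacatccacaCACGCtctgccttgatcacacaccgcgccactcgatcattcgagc
Esr2 (chr6:100644660-100644959, minus strand): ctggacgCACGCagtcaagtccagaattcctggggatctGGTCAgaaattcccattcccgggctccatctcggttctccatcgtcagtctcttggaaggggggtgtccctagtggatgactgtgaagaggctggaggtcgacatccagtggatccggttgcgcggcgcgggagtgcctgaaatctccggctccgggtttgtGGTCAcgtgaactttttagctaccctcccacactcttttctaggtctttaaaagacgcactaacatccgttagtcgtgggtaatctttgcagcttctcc

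The Pgr window held 1 of the motifs, a GGGCGG box from -129 to -124 relative to the start. Such a box was in 33.1% of 33469 rat promoter windows of the same length. The Pgr window held neither GGTCA, which was in 40.5% of windows, nor GCGTG, which was in 29.7%. The Esr1 window, which lies inside the annotated span of the gene (chr1:43511685-43904454), held 1 GCGTG match on its minus strand at positions 5 to 9. The Esr2 window also lies inside the annotated span of its gene (chr6:100589553-100645240). It held 2 GGTCA matches (-211 to -207 and -49 to -45) and 1 GCGTG match on its minus strand (-243 to -239). Positions in both estrogen receptor windows are thus relative to a start within the gene span. None of the 7 windows of the 6 genes held an estrogen or progesterone response element palindrome or TGTTCT. Of all windows, 0.0269% held the estrogen palindrome, 0.439% held the progesterone and glucocorticoid palindrome, 20.7% held TGTTCT and 7.33% held TGANTCA. A match is a string of letters and not a measured site, and these 300-base windows leave out distal elements.

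Pgr (chr8:14354398-14413271) was the member that moved. Its intensity was 38.3, 45.6 and 31.1 in the 3 vehicle-treated rats and 795.0, 838.1 and 721.8 in the 3 E2-treated rats. The means were 38.3 ± 7.2 and 784.9 ± 58.8 (SD, n = 3), and the groups lay far apart. On the log2 scale Pgr rose by 3.89 with E2 (SE 0.243, 95% interval 3.37 to 4.41), a 14.8-fold difference with a limma adjusted p of 8.91e-06. It had the smallest p value of all 23371 tested probe sets in this comparison and ranked 2 by the size of the difference. Pgr was the 1 called member of the 5 that were tested, against 1.58% of all tested probe sets.

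**Figure D1:**
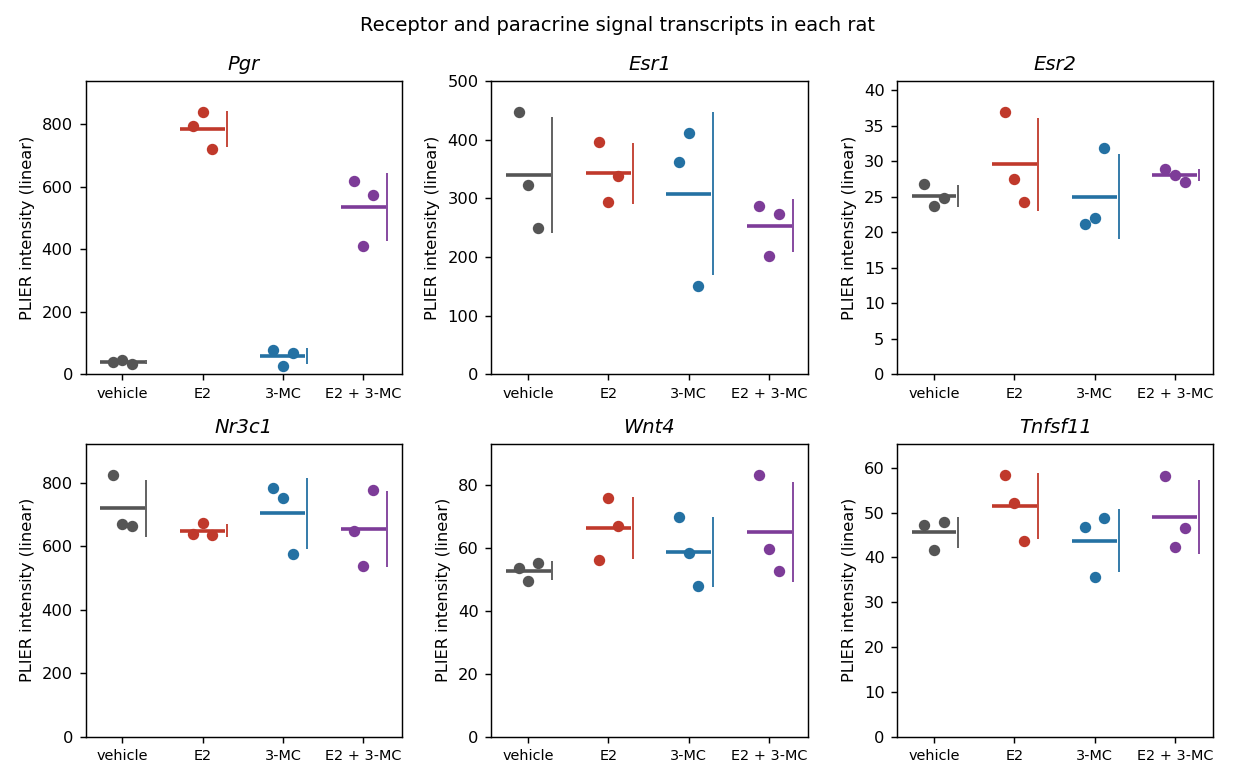
PLIER intensity (linear, vertical axis from 0) of the 6 measured genes in each of 12 rats, by treatment group. Points are rats, horizontal bars are group means and vertical bars are ± 1 SD (n = 3). Pgr lies between 27.5 and 76.6 in all rats without E2 and between 410.6 and 838.1 in all rats with E2, while the other 5 genes overlap widely between most groups.

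Without E2, 3-MC left Pgr low. The 3-MC rats had intensities of 76.6, 27.5 and 67.8 (57.3 ± 26.2), so 2 were above every vehicle rat and 1 was below all of them. The difference of 0.37 (95% interval -0.16 to 0.89) had an adjusted p of 0.920 by limma. It ranged from 0.16 without 3-MC rat 1 to 0.71 without 3-MC rat 2, the lowest of the group. In this comparison limma called 0 members and 0% of all probe sets. At an unadjusted p under 0.05 there were 991 probe sets (4.24%) and none of the members. The methods' t-test also called 0 members. That count was fixed by its 1.5-fold threshold, as the differences of the tested members ran from -0.21 to 0.37.

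With both compounds Pgr stayed high but lay below E2 alone. The 3 rats given E2 + 3-MC had intensities of 619.4, 410.6 and 574.7 (534.9 ± 109.9), and the highest of them was below the lowest E2 rat. Against vehicle, Pgr rose by 3.33 on the log2 scale, a 10.1-fold difference with a limma adjusted p of 6.39e-05, and was again the 1 called member, against 0.163% of all tested probe sets. Against 3-MC alone it rose by 2.96, or 7.80-fold, with an adjusted p of 2.76e-04, against 0.111% of all probe sets. It had the smallest p of all tested probe sets in both of these comparisons. The comparisons with vehicle share the vehicle rats, and the intensity that E2 added over vehicle was 66.5% as large with E2 + 3-MC as with E2 alone, or 85.6% on the log2 scale.

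The direct comparison of E2 + 3-MC with E2 did not pass the test for any member. Pgr was 0.56 lower on the log2 scale (1.47-fold, 95% interval -1.08 to -0.04), with an unadjusted p of 0.0382 and a limma adjusted p of 0.552. Limma called 0 members and 0% of all probe sets here. At an unadjusted p under 0.05 there were 2049 probe sets (8.77%) and 1 of the 5 tested members, Pgr. The methods' t-test with a 1.5-fold threshold called 0 members with or without adjustment. No member differed by 1.5-fold here (Pgr 1.47-fold), so the fold threshold fixed that count whatever the p values. Both Pgr and Esr1, 2 of the 5 tested members, were lower in every E2 + 3-MC rat than in every E2 rat, as were 5.93% of all tested probe sets. The interaction term, which asks whether 3-MC changed the response of Pgr to E2, was -0.93 (95% interval -1.66 to -0.19). Its unadjusted p was 0.0180 and its limma adjusted p was 0.982. The term sets the Pgr difference of -0.56 with E2 against that of 0.37 without E2, where Pgr intensities were low. Under 25 alternative settings the term ran from -1.26 to -0.72. Limma called 0% of all probe sets for the interaction, while 1032 (4.42%) were under the unadjusted threshold.

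**Figure D2:**
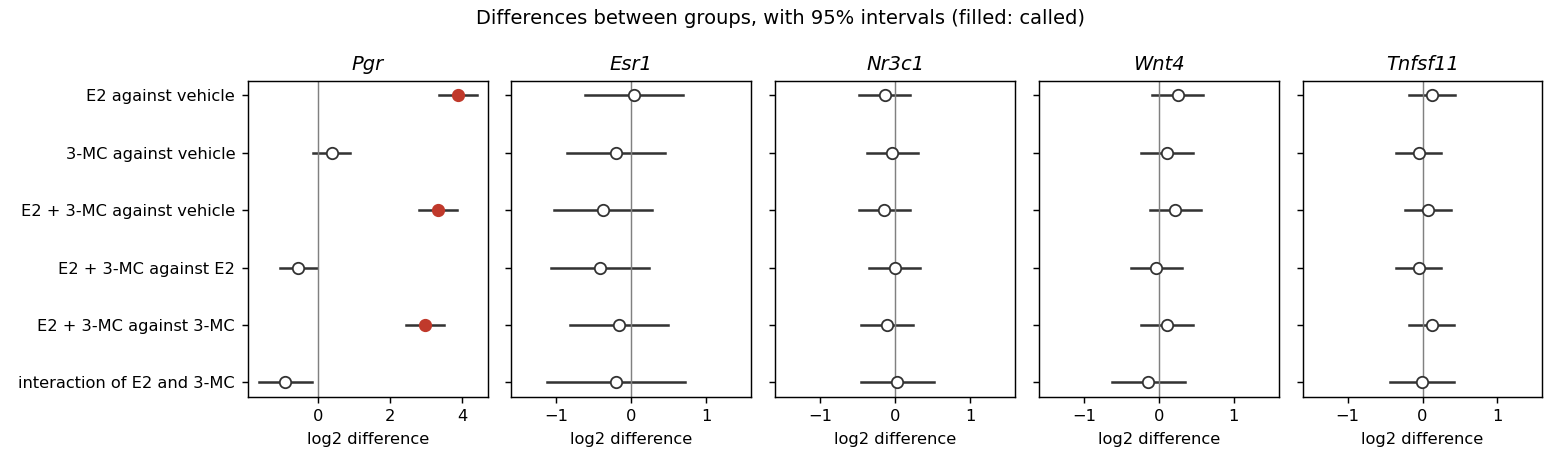
Log2 differences (horizontal axis) of the 5 tested genes in each of the 6 comparisons (vertical axis), with limma's 95% intervals as lines. Filled points passed the test. The Pgr panel has its own wider scale. Pgr passes in the 3 comparisons of an E2 group with a group without E2, and every interval of the other 4 genes includes 0.

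Luminal epithelial markers moved in the same direction as Pgr with E2, by much less. Of 16 luminal markers, 7 rose with E2 and 0 fell, where 1.58% of all probe sets were called, and the median difference was 0.65 against 0.02 over all tested probe sets. The 7 were Krt18, Cdh1, Cldn3, Cldn7, Foxa1, Gata3 and Esrp1. The summed intensity of the 16 was 7034 to 8246 in vehicle rats, 10401 to 13438 with E2, 6998 to 9279 with 3-MC and 8065 to 10406 with both, so the range for both compounds lay almost wholly below that for E2. In E2 + 3-MC against E2 the median of the luminal list was -0.36, 0 of its members passed and 8 were lower before adjustment, as were 2.77% of all probe sets. Basal epithelial markers, as a list, followed Pgr in part. Of 8, Krt14 and Krt17 rose with E2 and 0 fell, but the median was 0.10. It was -0.28 for 3-MC against vehicle and -0.13 for E2 + 3-MC against vehicle. In the latter, 0 were higher and 2 lower before adjustment, against 6.99% and 2.73% of all probe sets. In E2 + 3-MC against E2 the basal median was -0.37, near that of the luminal list. There 0 basal markers passed and 3 were lower before adjustment. When the luminal level of the same rat was subtracted from the log2 value of Pgr, a step added after seeing the data, the difference for E2 against vehicle was 3.27 in place of 3.89. That for E2 + 3-MC against E2 was -0.23 in place of -0.56. After this step the lowest E2 rat lay 3.04 above the highest vehicle rat and 0.0086 above the highest E2 + 3-MC rat. The subtracted level includes the 7 markers called with E2, and the part of luminal cell share in the Pgr differences was not tested.

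**Figure D3:**
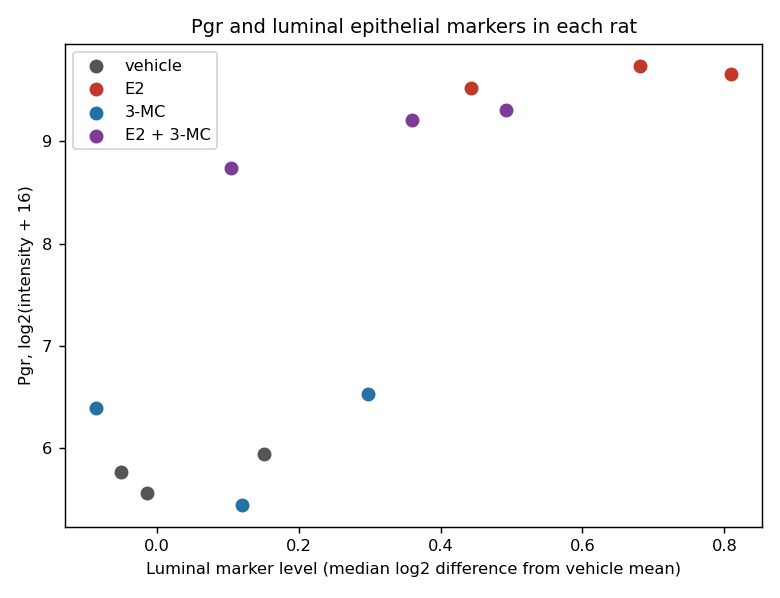
Pgr as log2(intensity + 16) (vertical axis) against the median level of 16 luminal markers, as a log2 difference from the vehicle mean (horizontal axis), with 1 point per rat and colors for the treatment groups. The E2 rats lie at luminal levels of 0.44 to 0.81 and the E2 + 3-MC rats at 0.11 to 0.49, and both groups sit well above the other 6 rats in Pgr, whose luminal levels run from -0.09 to 0.30.

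The genes whose values followed Pgr most closely over the 12 arrays were Bco2, a carotenoid-cleaving oxygenase (Pearson r 0.990), Dlgap5l2 (0.983), Csn2, which encodes β-casein (0.975), Tph1, an enzyme of serotonin synthesis (0.973), and the water channel gene Aqp5 (0.972). These correlations over 12419 ranked genes are set mainly by the gap between the rats with and without E2. Over the 6 rats given E2, with or without 3-MC, r was 0.937 for Bco2, 0.777 for Csn2 and 0.691 for Dlgap5l2, but 0.409 for Aqp5 and 0.315 for Tph1. Among those 6 rats Bco2 ranked 217 of the 12419 genes, so it was not among the closest there. Cd200, ninth over the 12 arrays (r 0.962), ranked 3 with an r of 0.990. The Bco2 intensities were 526.4, 481.0 and 359.4 with E2 and 391.6, 221.9 and 288.3 with E2 + 3-MC. In both genes the second rat given both compounds was the lowest of its group.

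**Figure D4:**
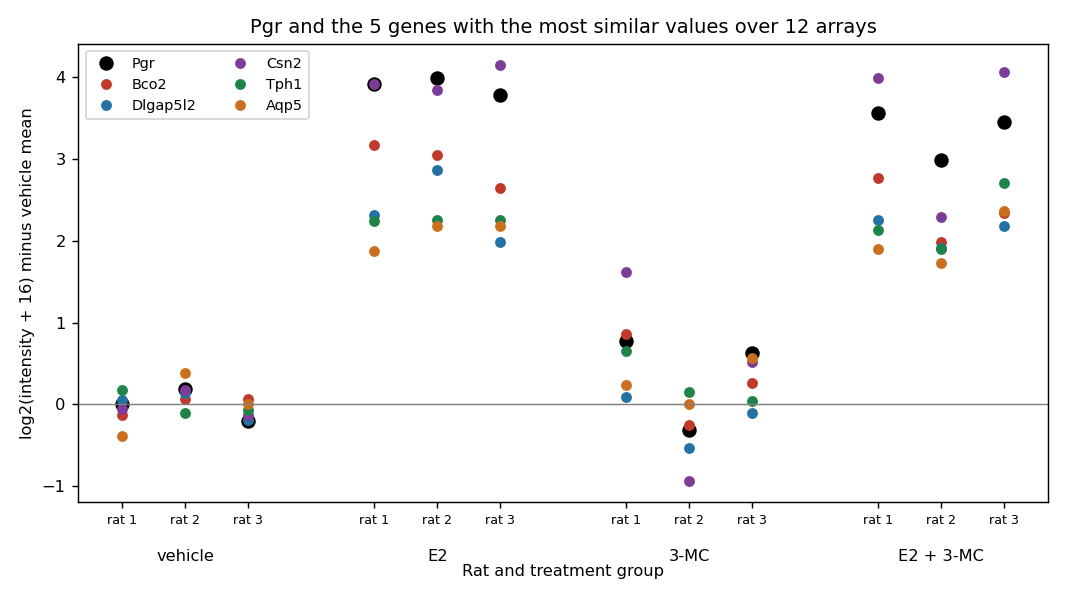
Log2(intensity + 16) minus the vehicle mean (vertical axis) of Pgr and the 5 genes most like it over 12 arrays, in each rat (horizontal axis), grouped by treatment. Points of 1 color are 1 gene. All 6 genes are high in the 6 rats given E2, and the second rat of the E2 + 3-MC group is the lowest of that group in all 6.

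Esr1 (chr1:43511685-43904454), the estrogen receptor through which E2 acts on the luminal epithelium, did not pass in any comparison. Its intensity was 447.0, 322.8 and 250.2 in vehicle rats, 397.0, 293.7 and 337.9 with E2, 363.1, 412.3 and 150.2 with 3-MC, and 287.0, 201.4 and 272.7 with E2 + 3-MC. The vehicle, E2 and 3-MC groups overlapped, and the third 3-MC rat had the lowest value of all 12. The difference for E2 against vehicle was 0.04 on the log2 scale (95% interval -0.61 to 0.69, limma adjusted p 0.980), and for 3-MC against vehicle it was -0.21 (-0.86 to 0.44, adjusted p 0.948). The direction of the second rests on single rats: it was 0.22 without 3-MC rat 3, and near 0 (-0.0019) without vehicle rat 1. The first interval is wide enough to hold a 1.5-fold change in either direction.

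The E2 + 3-MC rats had the lowest Esr1 mean, 253.7 ± 45.8 against 342.9 ± 51.9 with E2 (SD, n = 3), and each lay below every E2 rat. The difference was -0.42 (95% interval -1.07 to 0.23), with a limma adjusted p of 0.729. A second probe set for Esr1 gave nearly the same difference with a narrower interval, -0.42 (-0.82 to -0.01), an unadjusted p of 0.0434 and an adjusted p of 0.556. It read 169.8, 180.3 and 196.8 with E2 and 157.4, 109.3 and 134.7 with E2 + 3-MC, again without overlap. The values of neither probe set passed the test. Without E2 + 3-MC rat 2, the lowest of its group, the difference in the first probe set was -0.27.

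Over the 12 arrays Esr1 was most like Adcy2, which encodes an adenylyl cyclase (r 0.933), Fhl5 (0.928), Tcaim (0.912), Ddah2 (0.902) and Zeb1, a transcription factor of mesenchymal cells (0.898). Within the 6 rats given E2 these values were 0.895, 0.751, 0.884, 0.873 and 0.938. The third 3-MC rat enters the values over 12 arrays, and Esr1, Adcy2, Fhl5, Tcaim, Ddah2 and Zeb1 all had their lowest 3-MC value in it. Adcy2, for example, read 102.7, 106.7 and 32.8 with 3-MC. This rat also had the lowest skeletal muscle level of its group (-3.78), and the part of tissue makeup in these values was not tested.

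Esr2 (chr6:100589553-100645240), the second estrogen receptor gene, lay below the intensity filter and was not among the 5 tested members. Its intensity was 26.8, 23.7 and 24.7 in vehicle rats, 36.9, 27.5 and 24.2 with E2, 21.1, 22.0 and 31.9 with 3-MC, and 28.9, 28.1 and 27.1 with both. The 4 groups spanned 21.1 to 36.9 in all and most of them overlapped. The lowest E2 + 3-MC rat (27.1) was just above the highest vehicle rat (26.8). How many of all probe sets show this order was not counted. In a fit without the filter, the difference for E2 against vehicle was 0.14 (95% interval -0.15 to 0.43, limma adjusted p 0.821) and that for E2 + 3-MC against vehicle was 0.10 (-0.19 to 0.39, adjusted p 0.836). At this signal the pseudocount of 16 makes up a large part of each value and narrows the differences. The genes most like Esr2 were Pex5 (r 0.854), Nfatc4 (0.822) and Prss27 (0.819).

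Nr3c1 (chr18:31522783-31644508), the glucocorticoid receptor gene, did not pass in any comparison. Its intensity was 824.7, 671.1 and 665.3 in vehicle rats, 637.7, 674.7 and 637.4 with E2, 783.0, 752.1 and 577.3 with 3-MC, and 648.8, 537.1 and 776.7 with E2 + 3-MC. All 4 groups overlapped. The difference was -0.14 for E2 against vehicle (95% interval -0.48 to 0.20, limma adjusted p 0.831), -0.04 for 3-MC against vehicle (-0.38 to 0.31) and -0.01 for E2 + 3-MC against E2 (-0.35 to 0.34). All 3 intervals leave out a 1.5-fold change. Its values were most like those of Btbd1 (r 0.936), Adam23 (0.919) and Sgce (0.917).

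Among 14 known targets of the glucocorticoid receptor, 1 fell with E2 and 0 rose, where 1.58% of all probe sets were called. It was Dusp1, a phosphatase that switches off MAP kinases, which read 955.9, 953.2 and 763.5 in vehicle rats and 472.0, 400.0 and 424.4 with E2, a 2.02-fold difference (limma adjusted p 0.00441). The median of the 14 was -0.45 against 0.02 for all tested probe sets, and before adjustment 7 of them were lower and 1 was higher at p under 0.05, against 4.89% and 6.82% of all probe sets. The third vehicle rat stood apart: the median level of the 14, as a log2 difference from the vehicle mean, was 0.18, 0.17 and -0.33 in vehicle rats and -0.44, -0.51 and -0.33 with E2. Tsc22d3, which encodes the anti-inflammatory protein GILZ, was lower with E2 (275.5 ± 3.2 against 465.5 ± 115.9) at a limma adjusted p of 0.0715. Fkbp5, a chaperone that dampens receptor activity, was also lower with E2 (63.7 ± 1.8 against 103.6 ± 28.1) at a limma adjusted p of 0.385. In E2 + 3-MC against E2 none of the 14 passed, 4 were higher at an unadjusted p under 0.05, as were 5.99% of all probe sets, and their median was 0.30. Marker lists of other cell types differed between the same groups. For E2 against vehicle the endothelial markers had a median of -0.48 (6 of 7 lower before adjustment) and the adipocyte markers -0.30 (5 of 8), with 0 called. The lymphocyte and myeloid medians were -0.32 and -0.42, with 0 of 7 and 0 of 8 lower before adjustment and the myeloid Cd14 called higher. For E2 + 3-MC against E2 the lymphocyte and myeloid medians were 0.90 and 0.91, with 6 of 7 and 5 of 8 higher before adjustment and 0 called. The part of these cells in the target genes was not tested. Of 3 genes that set the local supply of active glucocorticoid, Hsd11b1, Hsd11b2 and H6pd, none passed in any comparison, and 1 was lower with E2 at an unadjusted p under 0.05.

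Wnt4 (chr5:154797245-154818565), a WNT ligand released by progesterone-responsive luminal cells, was low and overlapped between most groups. Its intensity was 53.8, 49.6 and 55.2 in vehicle rats and 56.2, 75.9 and 67.0 with E2, so each E2 rat was above each vehicle rat. Pgr and Wnt4 were the 2 of 5 tested members with this pattern, which 10.1% of all tested probe sets showed. The difference for Wnt4 was 0.25 (95% interval -0.09 to 0.60) with a limma adjusted p of 0.617. With 3-MC it read 69.9, 58.5 and 47.9, and with both compounds 83.2, 59.6 and 52.7, which overlapped all other groups. The genes most like Wnt4 were Gja6 (r 0.930), Abhd18 (0.871) and Prps1l1 (0.864).

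Of 34 other WNT ligands, receptors and modulators tested, 2 rose and 2 fell with E2, where 1.58% of all probe sets were called. Wnt5a, a ligand of the non-canonical branch, read 107.0, 80.1 and 99.0 in vehicle rats and 183.7, 194.7 and 142.3 with E2 (1.70-fold, limma adjusted p 0.0221). Rspo3, a secreted amplifier of WNT signaling, rose 2.41-fold (adjusted p 0.0384). The secreted WNT antagonists Sfrp2 and Sfrp4 fell 2.83-fold and 2.63-fold (adjusted p 0.0182 and 0.0255). Sfrp2 read 1174.8, 869.8 and 1632.4 in vehicle rats and 349.8, 435.9 and 449.3 with E2. The fibroblast marker list had a median of -0.48 in this comparison with 0 of 7 members passing and 3 lower before adjustment, and its part in Sfrp2 and Sfrp4 was not tested. These 4 calls were fragile: without E2 rat 1 or E2 rat 2 none of them passed, and without vehicle rat 1, vehicle rat 2 or vehicle rat 3 there were 1, 0 and 1 higher and 0, 2 and 1 lower. Without E2 rat 3, 3-MC rat 3 or E2 + 3-MC rat 1, Wnt5a was the 1 of the risen pair that passed. In E2 + 3-MC against E2, Sfrp4 and Sfrp2 were 1.01 and 0.82 higher but did not pass (limma adjusted p 0.399 and 0.477).

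None of the 5 tested targets of canonical WNT signaling passed in any comparison, and with E2 none was under an unadjusted p of 0.05. Axin2, the feedback inhibitor most used as a readout of that pathway, was 145.8 ± 15.7 in vehicle rats and 152.6 ± 10.4 with E2, a difference of 0.06 (95% interval -0.35 to 0.48, limma adjusted p 0.946). It was lower in every E2 + 3-MC rat (131.4 ± 13.1) than in every E2 rat, by 0.20 (limma adjusted p 0.809). So were 5.93% of all tested probe sets. Lef1, a transcription factor of the pathway, was 0.43 higher in that comparison (unadjusted p 0.0330, limma adjusted p 0.544). It was the 1 target under 0.05 there before adjustment, where 5.99% of all probe sets were higher. For E2 + 3-MC against vehicle, 2 of the 5 were higher before adjustment, against 6.99% of all probe sets. They were Lef1 by 0.56 and Tcf7 by 0.52 (limma adjusted p 0.389 and 0.505). The lymphocyte markers had medians of 0.90 and 0.73 in these 2 comparisons. The part of lymphocytes in Lef1 and Tcf7 was not tested.

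Tnfsf11 (chr15:60083008-60114479), the RANKL gene, stayed low in every group. Its intensity was 47.3, 41.6 and 48.0 in vehicle rats, 58.4, 52.2 and 43.6 with E2, 46.9, 35.7 and 48.7 with 3-MC, and 58.2, 42.3 and 46.6 with E2 + 3-MC. All groups overlapped. The difference for E2 against vehicle was 0.13 (95% interval -0.18 to 0.43, limma adjusted p 0.824), which leaves out a 1.5-fold change, and for E2 + 3-MC against E2 it was -0.05 (-0.36 to 0.25, adjusted p 0.939). Tnfsf11 is also made by T lymphocytes. The lymphocyte markers had medians of 0.64 for 3-MC against vehicle and 0.90 for E2 + 3-MC against E2. The Tnfsf11 differences were -0.05 in both, and the part of lymphocytes in its signal was not tested. The genes most like Tnfsf11 were the growth factor receptor gene Fgfr4 (r 0.933), Chd3 (0.927) and Klf13 (0.911).

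Among 16 tested genes of the RANK pathway, from the decoy receptor through the TRAF adaptors and NF-κB to the proliferation and differentiation targets, none passed in any comparison. In E2 against vehicle, 3 were higher and 2 lower before adjustment, against 6.82% and 4.89% of all probe sets, and the median was 0.05. Tnfrsf11b read 386.7, 335.7 and 474.9 in vehicle rats and 326.9, 268.4 and 154.3 with E2. It was 0.69 lower with E2 on the log2 scale (95% interval -1.22 to -0.15), but the limma adjusted p was 0.254. Traf6, the adaptor that couples RANK to NF-κB, differed by 0.12 (adjusted p 0.839). The target genes Elf5, a regulator of alveolar fate, Id2 and Ccnd1, the cyclin D1 gene, were 0.63, 0.42 and 0.41 higher with E2 (adjusted p 0.0559, 0.250 and 0.314). Elf5 thus lay just short of the threshold and passed in the fit without vehicle rat 2 and in that with a pseudocount of 32.

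Some genes that respond to the hormone receptors rose with E2, as Pgr did. Of 10 tested estrogen receptor targets 3 rose with E2 and 0 fell, and the same 3 passed with E2 + 3-MC against vehicle. The shares of all probe sets called were 1.58% and 0.163%. They were Areg, the epidermal growth factor ligand amphiregulin, Stc2, a secreted glycoprotein, and Prlr, the prolactin receptor gene. Areg read 44.1, 20.1 and 50.4 in vehicle rats, 572.1, 498.1 and 526.0 with E2 and 355.9, 287.8 and 697.1 with both, so that the last 2 groups overlapped. Its difference was 3.38 with E2 (limma adjusted p 3.96e-05) and 3.04 with both compounds (adjusted p 2.00e-04). Prlr was 189.4 ± 32.3, 659.5 ± 64.0 and 463.8 ± 86.3 in the same groups. Like Pgr it was lower in every E2 + 3-MC rat than in every E2 rat (-0.51, limma adjusted p 0.480). So were 5.93% of all tested probe sets. Without E2 + 3-MC rat 1 or rat 3, Areg was the 1 of the 3 that passed with E2 + 3-MC against vehicle.

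Of 7 tested genes of the progesterone response, Areg and Prlr, which also stand in the list of estrogen targets, were the 2 that rose with E2, where 1.58% of all probe sets were called. The median of the 7 was 0.42. Calca, which encodes calcitonin, a progesterone-induced hormone of mammary epithelium, was below the filter and read 34.7 ± 2.1 in vehicle rats and 29.0 ± 3.1 with E2. The other members, Ccnd1, Cxcl12, Cxcr4, Elf5 and Id2, did not pass.

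Among 14 tested cofactors and chaperones of the receptors, the luminal transcription factor genes Foxa1 and Gata3, which open chromatin for the estrogen receptor, rose with E2, against 1.58% of all probe sets called. Foxa1 went from 67.5 ± 10.4 to 151.6 ± 37.7 (1.99-fold, limma adjusted p 0.00997) and Gata3 from 791.7 ± 159.5 to 1516.8 ± 236.7 (1.91-fold, adjusted p 0.0182). Both genes stand in the luminal marker list too. With E2 + 3-MC against vehicle their adjusted p values were 0.0519 and 0.216. Without E2 rat 2 neither passed, and without vehicle rat 1 or E2 rat 1 Foxa1 alone did. The coactivators Ncoa1, Ncoa2 and Ncoa3, the corepressor Ncor1, and the chaperones Fkbp4, Hsp90aa1 and Ptges3 did not pass in any comparison. The median of the 14 was 0.13.

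Of 8 tested other steroid receptors and membrane progestin receptors, 1 rose with E2, against 1.58% of all probe sets called. Paqr5, a membrane progestin receptor gene, read 72.2, 57.5 and 65.9 in vehicle rats and 108.2, 140.8 and 102.9 with E2 (1.63-fold, limma adjusted p 0.0381). It did not pass without any 1 of the vehicle rats, the E2 rats or the E2 + 3-MC rats. The mineralocorticoid receptor gene Nr3c2 was 163.6 ± 9.9 in vehicle rats and 166.2 ± 10.7 with E2, a difference of 0.02 (adjusted p 0.980).

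**Figure D5:**
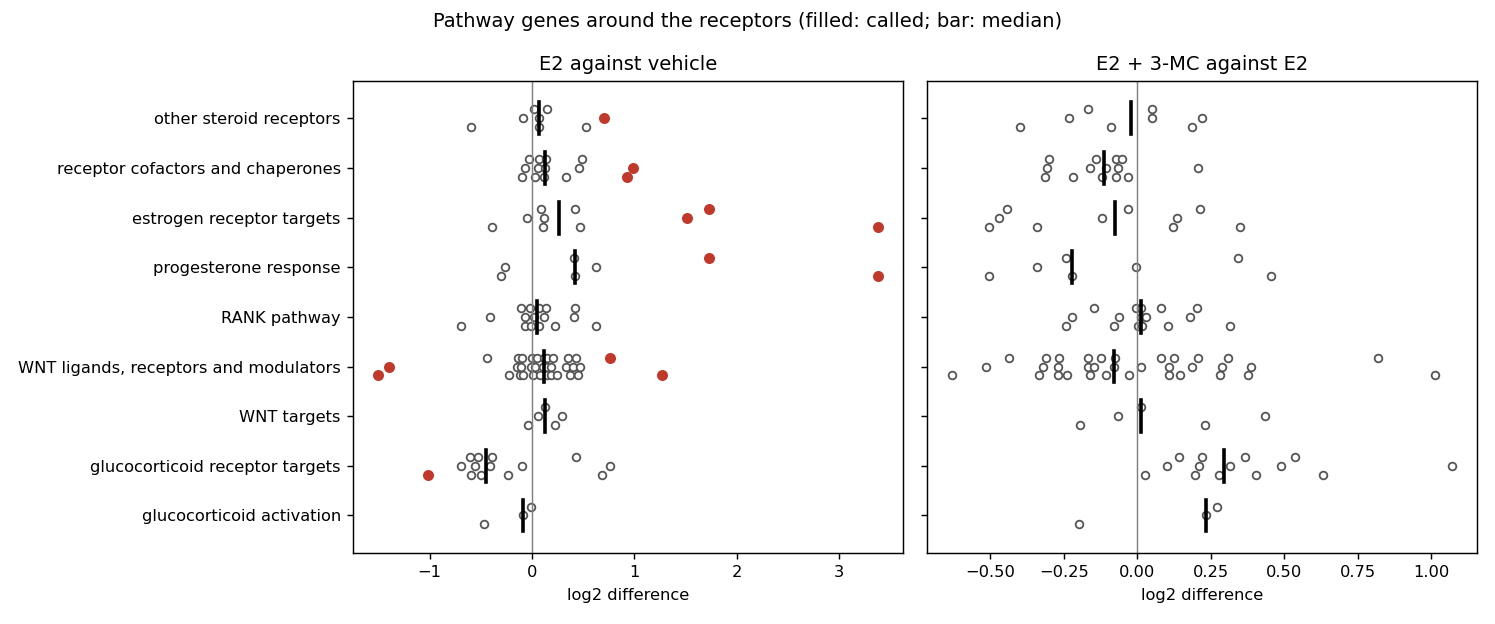
Log2 differences (horizontal axis) of the tested genes of 9 pathway lists (vertical axis) for E2 against vehicle and for E2 + 3-MC against E2, with 1 point per gene, filled where the gene passed the test, and a bar at each list's median. The panels have different horizontal scales. The filled points are all in the left panel, with Areg farthest to the right at 3.38 in 2 lists, and the glucocorticoid receptor targets have a median of -0.45 on the left and 0.30 on the right.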

How the data were processed

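Total RNA of good quality (RNA integrity number of at least 7) from 12 rats was labeled and hybridized to Affymetrix Rat Gene 1.0 ST arrays, 1 array per rat. Per the labels, the authors summarized probe signals with PLIER and Affymetrix Expression Console. The values used are the linear intensity values that the authors deposited for 29214 probe sets. The methods also name quantile normalization, a baseline at the control median and a filter on the lowest values, but array medians ran from 85.7 to 109.5 and no centering or filter was visible, so the values may precede those steps. No further normalization was applied. A symbol stood alone on 15310 probe sets, several stood on 323 and 13581 had none, by the platform annotation. Gene positions are those of GRCr8.

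Log2(intensity + 16) was fitted with limma 3.58.1 in R 4.3.3, with 1 mean per group over all 12 arrays, after removal of probe sets with a mean at or below the 20th percentile. Tests were two-sided. There were 6 comparisons: each treatment with vehicle, the combination with each compound alone, and the interaction. The script was tested on simulated data. Likeness is Pearson r of log2 values over 12 arrays with 1 probe set per gene, given as a description. Figures were drawn with Python and matplotlib. The members, gene lists and naming rule (all members, fixed partners of their pathways, up to 4 called genes per list, and the 3 or 5 most alike genes) were chosen with earlier results of these data known. Cell type levels are medians over marker genes.

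The labels number the rats 1 to 3 in each group without saying what a number shares. Deviations of same-numbered rats from their group means correlated at 0.341, 0.442 and 0.564 between vehicle and 3-MC, all above 0.1, and the values are the only ground for treating these as pairs. The other pairs of groups did not meet this bound. The skeletal muscle level was 1.55, 2.36 and -4.01 in vehicle rats 1 to 3 and 1.08, 1.70 and -3.78 in 3-MC rats 1 to 3. Its part in these correlations was not tested. Rats are separate animals, and the spread between them underlies every p value.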

Additional observations from a re-analysis of the deposited data

How the results depend on the processing

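The number of members called was recomputed with no filter or one at the 50th percentile, with 1 or 32 as the pseudocount, after quantile normalization or centering of arrays, with a probe set per gene, in pairs of groups alone, with trend and robust settings, array weights, a replicate block, treat, a 2-fold threshold and none, the methods' t-test, and without each rat in turn. It was the same as reported under all of these but 1: the methods' t-test with adjustment called 0 members for E2 + 3-MC against vehicle and 0 for E2 + 3-MC against 3-MC (Pgr adjusted p 0.576 and 0.993). The cause was not tested. Pgr passed for E2 against vehicle under all 28 alternatives, with log2 differences of 3.54 to 4.33 and adjusted p values up to 0.0461. Its difference for E2 + 3-MC against E2 was negative in all 28 (-0.67 to -0.38), with adjusted p values from 0.114 to 1. With same-numbered rats as a replicate block, the fit called 1, 0, 1, 0, 1 and 0 members in the order of the comparisons, as without it, and the adjusted p for Pgr in E2 + 3-MC against E2 was 0.432; Rspo3 then also passed for E2 + 3-MC against vehicle. With Esr1 the sign of the difference for E2 against vehicle turned in 2 of 28 alternatives, that for 3-MC against vehicle in 1 and that for E2 + 3-MC against 3-MC in 3, none of them called. Quantile normalization and centering on array medians moved the median of all probe sets by less than 0.1 and added Tsc22d3 to the glucocorticoid receptor targets that fell with E2, for 2 in place of 1. With the filter at the 50th percentile, Wnt4, Tnfsf11, Paqr5 and Rspo3 were not tested. A group left with 2 rats was assumed to vary like the others. Signal limits Esr2, Wnt4 and Tnfsf11, and Pgr in the rats without E2, where the pseudocount is large beside the intensity.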
